A study of Mus musculus with 270 samples.

Results

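The hearts of 20 M mice were compared with those of 14 M mice, gene by gene, to describe which transcripts differ between these 2 neighbouring ages in an aging series. The comparison used 16 heart libraries, 9 from 14 M and 7 from 20 M mice, of 45 heart libraries and 270 samples in the whole series. The libraries were the columns of the heart table labelled 14 M or 20 M, and the genes were the 15842 of 51810 listed genes that reached 10 normalized counts in 5 or more heart columns. All mice were untreated wild-type C57BL/6J males from 1 commercial cohort, caged in small groups, and every organ was collected over 2 consecutive days with the ages spread over both. Each library came from powder of a frozen heart, so atria, ventricles, vessels, valves and blood were measured together, and the mouse was the replicate. In such bulk samples, fewer cells of a type and less RNA per cell cannot be told apart.

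The adult heart is driven by cardiomyocytes, which take most of their ATP from the oxidation of fatty acids, while fibroblasts, endothelium, pericytes and resident macrophages make up most of the other cells. A heart under load is known to raise the natriuretic peptides Nppa and Nppb and the slow myosin Myh7, and its fibroblasts lay down matrix under transforming growth factor and connective tissue growth factor (Ccn2). Resident and recruited macrophages read damage and microbes through lectin, scavenger and Fc receptors, which are encoded by genes that cardiomyocytes hardly express.

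The libraries held 6121468 to 11691567 recovered reads at 14 M and 5411149 to 14151822 at 20 M, with 19649 to 20801 genes detected. The cardiac myosin Myh6 was high in all 45 libraries (at least 117112 normalized counts), while the markers Actc1, Pln, Tnnc1 and Myom1 were listed at 0 in all 16 libraries and tell nothing. The sign of the first principal component of the heart values (30.5% of variance) split the 45 libraries into sets A (24) and B (21). These sets held 5 and 4 mice at 14 M and 3 and 4 at 20 M. The scores of the 16 libraries ran from -74.2 (c3055) to 56.0 (c1300), and some lay near the cut at 0, such as c1315 at -11.4. Column names with the suffix b, whose meaning is not given in the sources used here, covered 3 mice at 14 M and 2 at 20 M, and the summed testis germ cell markers were 5.39 to 18.8 in these 5 libraries against 563 to 978 in the other 11. For 4 of the 14 M mice and 0 of the 20 M mice the library labelled liver held the values of the heart library, up to a constant factor; the liver table was not used in any comparison.

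At 20 M, 14 genes rose and 5 fell against 14 M (limma on log2(normalized count + 1), Benjamini-Hochberg adjusted p at most 0.05, called below), 0.12% of the genes tested. The genes that rose encode secreted and matrix proteins (Sfrp1, Fstl1, Svep1), myeloid receptors and enzymes (Lair1, Clec4n, Msr1, Aoah, Csf2rb), cytokine and interferon response proteins (Socs3, Ifi204), a thyroid hormone activating enzyme with its divergent non-coding neighbour (Dio2, Gm26512), a calcium-binding protein (Efhd2) and a further non-coding RNA (Gm12295). Those that fell included Frmpd3, Gal3st2c, the fatty acid oxidation enzyme Ech1 and the water channel Aqp1. At an unadjusted p of at most 0.05, 501 genes were higher (3.16%) and 412 lower (2.6%), and the median log2 difference over all tested genes was -0.00077. With the 14 and 20 M libraries fitted alone, 0 genes passed the adjusted threshold with limma (1000 at an unadjusted p of at most 0.05). Count models on the recovered reads of all 45 libraries called 61 genes with edgeR (54 higher, 7 lower) and 92 with DESeq2 (76 higher, 16 lower). The 2 sets as a block gave 190 (114 higher, 76 lower). The sets were drawn from the same heart values, so that count is not an independent check. Leaving out the 20 M mouse c3580 or c1300 left 3 or 4 calls.

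**Figure D1:**
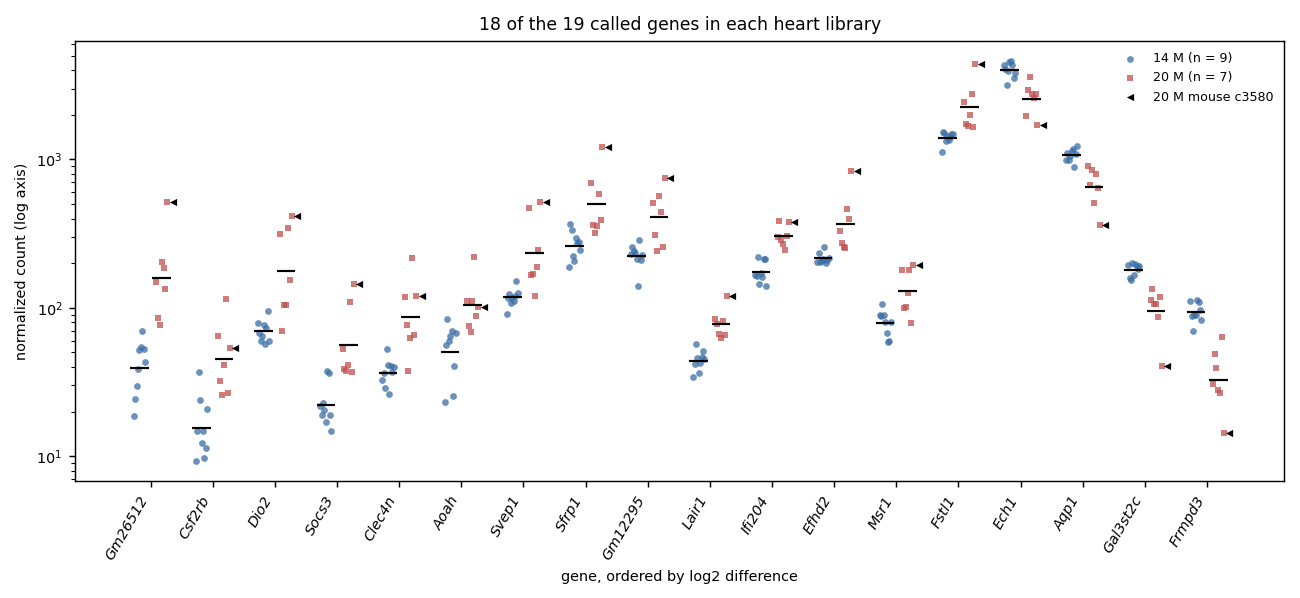
Normalized count (log axis) of 18 of the 19 called genes in each heart library, 14 M in blue circles (n = 9) and 20 M in red squares (n = 7), with black lines at the mean on the log2(count + 1) scale and a black arrow beside the 20 M mouse c3580. This mouse had the highest 20 M value in 10 of the 14 genes that rose, for example 516 for Gm26512.

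The largest rise by fold was that of Gm26512, a long non-coding RNA on mouse chromosome 12 (GRCm38, 90738201 to 90869235, plus strand), which the annotation types as transcribed from a bidirectional promoter. Its normalized count was 18.6 at the lowest, 43.1 at the median and 69.5 at the highest among the 14 M hearts, and 76.8, 149 and 516 among the 20 M hearts. All 7 mice of 20 M lay above all 9 of 14 M, and the log2 difference was 1.98 ± 0.31 (SE, adjusted p = 0.000549), or 3.95-fold. Its partner on the minus strand is Dio2 (90724552 to 90738438), the type 2 deiodinase, which converts the prohormone thyroxine to active triiodothyronine inside cells. Dio2 spanned 57.2, 67.3 and 95.2 counts (lowest, median, highest) at 14 M and 70.3, 155 and 414 at 20 M. Here 6 of 7 old hearts exceeded all 14 M values, the mouse c1312 overlapped them, and the log2 difference was 1.33 ± 0.28 (adjusted p = 0.030). The mouse c3580 had the highest value of both genes. Dio2 passed in 8 of the 16 fits that left out 1 mouse. The 2 genes overlap by 238 bases in the GENCODE annotation. The RefSeq start of Dio2, used for the promoter below, lies further into Gm26512 and makes the shared stretch longer. The study's methods state forward strand information for the mapping but no strand setting for the counting, so reads in the shared stretch cannot be assigned with certainty.

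The promoter of Dio2 is shown because 2 genes that overlap head to head here both rose, and because Dio2 is a classical cAMP-responsive gene. The RefSeq table gives the 250 bases before the RefSeq start of Dio2 at chr12:90739039-90739288 (GRCm38.p6, minus strand, 5′ to 3′), a window that also lies within the annotated span of Gm26512, with the CRE letters TGACGTCA and the TATA letters TATAAA in capitals.
Dio2: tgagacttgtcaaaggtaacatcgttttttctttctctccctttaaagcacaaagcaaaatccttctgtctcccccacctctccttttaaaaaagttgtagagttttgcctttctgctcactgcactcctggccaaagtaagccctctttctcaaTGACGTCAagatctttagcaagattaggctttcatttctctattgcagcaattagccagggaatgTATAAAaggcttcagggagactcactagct
The CRE letters lie at bases -95 to -88 and the TATA letters at -30 to -25 from that start, and the 2 do not overlap. Searched on both strands of windows of this length, the CRE letters stood in 2.81% and the TATA letters in 8.91% of the 11727 tested genes with a promoter entry, and both stood in 0.23%. These matches describe letters in the window, not a bound site.

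Sfrp1, a secreted antagonist of Wnt ligands, rose from 187, 272 and 366 counts (lowest, median, highest) at 14 M to 318, 388 and 1220 at 20 M. Every 20 M value was above the 14 M median and 4 of 7 were above all 14 M values, with a log2 difference of 0.93 ± 0.18 (adjusted p = 0.0152). Fstl1, a secreted follistatin-like glycoprotein made by cardiac stromal cells, spanned 1125, 1447 and 1538 counts at 14 M and 1650, 2000 and 4419 at 20 M, without overlap. Its log2 difference was 0.68 ± 0.14 (adjusted p = 0.0217). Svep1, a large adhesive matrix protein, spanned 91.3, 117 and 153 counts at 14 M and 120, 189 and 514 at 20 M, with 6 of 7 old hearts above all younger ones. Its log2 difference of 0.99 ± 0.22 (adjusted p = 0.0417) passed in only 4 of the 16 fits that left out 1 mouse, and a plus-strand non-coding gene, Gm26889, overlaps it.

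Of the 44 tested members of the extracellular matrix and fibrosis list, 1 (Sfrp1) was called higher, 0 lower, and 18 were higher at an unadjusted p of at most 0.05 against 0 lower. The list's median log2 difference was 0.43. Ccn2, the connective tissue growth factor, did not overlap between ages (358, 610 and 975 counts at 14 M, 998, 1321 and 7315 at 20 M) but missed the threshold, at 1.35 ± 0.32 (adjusted p = 0.0743). Col8a1, a short-chain network collagen, stood at 0.997 ± 0.24 (adjusted p = 0.0743), the collagen cross-linking enzyme Lox at 1.25 ± 0.32 (adjusted p = 0.115) and the matricellular protein Postn at 0.91 ± 0.35 (adjusted p = 0.533). The fibrillar collagens Col1a1 and Col3a1 had differences of 0.62 ± 0.22 (adjusted p = 0.430) and 0.41 ± 0.20 (adjusted p = 0.869), and 1 and 2 of the 7 old hearts lay below all 14 M hearts. The mice of 20 M were uneven here. The list summed to 29205 to 38690 over the 14 M hearts, and the old hearts c1312, c1315 and c2140 (29396, 30974 and 36798) lay within that range, c3055 (40246) just above it, and c1300, c3054 and c3580 far above it (60581, 67575 and 78085). Without c1300 and c3580 the list's median was 0.22, and in the libraries with suffix b alone it was -0.026, with 0 members called in either fit. With all 45 libraries, 3 members were called higher with quantile normalization (median 0.44) and 7 with edgeR (median 0.59), and 0 lower. The fibroblast marker list, 10 of whose members were tested, had a summed level of 18303 to 24574 at 14 M and 16685 to 30987 at 20 M, and its marker Tcf21 was listed at 0. The part of cell makeup in the matrix values was not tested.

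Several genes that rose encode receptors or enzymes of myeloid cells, a grouping made after the calls were seen. Lair1, an inhibitory receptor for collagen, spanned 34.0, 45.2 and 57.3 counts at 14 M and 62.6, 77.7 and 120 at 20 M. The ages did not overlap, and the log2 difference was 0.81 ± 0.16 (adjusted p = 0.0203). Clec4n, the fungal sensor Dectin-2, spanned 26.3, 36.8 and 52.5 counts at 14 M and 37.4, 76.6 and 217 at 20 M, with 6 of 7 old hearts above all younger ones and a log2 difference of 1.23 ± 0.24 (adjusted p = 0.0203). Csf2rb, the shared beta chain of the receptors for GM-CSF, interleukin-3 and interleukin-5, had low counts, 9.29, 14.8 and 36.7 at 14 M and 26.0, 41.2 and 114 at 20 M. Its log2 difference was 1.47 ± 0.33 (adjusted p = 0.04045), and 3 old hearts lay within the 14 M range. Csf2rb, Aoah and Msr1 passed in 6, 7 and 7 of the 16 fits that left out 1 mouse. Aoah, which inactivates bacterial lipopolysaccharide, rose by 1.03 ± 0.23 (adjusted p = 0.04045), and the scavenger receptor Msr1 by 0.73 ± 0.16 (adjusted p = 0.03875). For Msr1, 3 of 7 old hearts lay within the 14 M range of 58.6 to 106 counts.

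In the list of innate sensing and Fc receptors, 2 of 28 tested members (Clec4n and Socs3) were called higher and 0 lower, 13 were higher and 0 lower at an unadjusted p of at most 0.05, and the median log2 difference was 0.61. In the libraries with suffix b alone the median was 0.234 with 3 members higher, and without c1300 and c3580 it was 0.438 with 9 higher and 0 called by limma. Casp4, the inflammatory caspase that binds lipopolysaccharide, stood at 0.62 ± 0.15 (adjusted p = 0.0707). Among 30 chemokines and cytokines 0 were called by limma, 15 were higher and 1 lower at an unadjusted p of at most 0.05, and the median was 0.56. The monocyte attractants Ccl12 and Ccl8 had differences of 1.79 ± 0.44 (adjusted p = 0.0904) and 1.89 ± 0.61 (adjusted p = 0.302), with Ccl8 at 2.02 to 12.2 counts at 14 M and 10.4 to 207 at 20 M. The macrophage chemokine Ccl9 stood at 0.85 ± 0.21 (adjusted p = 0.0895), and the eosinophil attractant Ccl24 went the other way, at -0.80 ± 0.21 (adjusted p = 0.147). Of 19 complement genes 0 were called and 4 were higher at an unadjusted p of at most 0.05, among them C1qc (0.66 ± 0.17), the C3a receptor C3ar1 (0.64 ± 0.17) and the C5a receptor C5ar1 (1.08 ± 0.48). In antigen presentation, 0 of 20 were called, 2 were higher at an unadjusted p of at most 0.05 (the protease Ctss at 0.72 ± 0.17 and the class I regulator Nlrc5 at 0.56 ± 0.25), and the peptide transporter Tap2 stood at 0.14 ± 0.12. The 15 macrophage markers had a median of 0.30 with 0 called and 4 higher at an unadjusted p of at most 0.05, and their summed level was 2557 to 5898 at 14 M and 3552 to 11110 at 20 M. The median of 10 monocyte and dendritic cell markers was 0.66, with summed levels of 286 to 574 and 450 to 923, and the part of myeloid cell number in the receptor values was not tested. In the libraries with suffix b alone the medians were 0.34 for chemokines and cytokines, -0.133 for complement, 0.06 for macrophage markers and 0.295 for monocyte and dendritic cell markers.

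Among responses to cytokines and interferon, Socs3, the feedback inhibitor of JAK and STAT signalling, spanned 14.8, 20.6 and 37.7 counts at 14 M and 36.9, 41.2 and 144 at 20 M, a log2 difference of 1.32 ± 0.26 (adjusted p = 0.0203). Ifi204, an interferon-inducible DNA-binding protein, spanned 140, 166 and 220 counts at 14 M and 245, 301 and 384 at 20 M. Its ages did not overlap, and the log2 difference was 0.80 ± 0.17 (adjusted p = 0.030), with a pass in 8 of the 16 fits that left out 1 mouse. Ifi204 is 1 of a family of near-identical neighbours and may share reads with them. It was the only 1 of 35 interferon response genes called, 7 were higher and 0 lower at an unadjusted p of at most 0.05, and the list's median was 0.24. The RNA sensor Oas1a and the nucleic acid sensor Zbp1 stood at 1.07 ± 0.31 (adjusted p = 0.217) and 1.11 ± 0.34 (adjusted p = 0.262). Efhd2, a calcium-binding actin regulator, rose by 0.76 ± 0.16 (adjusted p = 0.0253), from 201 to 257 counts at 14 M to 252 to 839 at 20 M. The long intergenic non-coding RNA Gm12295 rose by 0.87 ± 0.18 (adjusted p = 0.0253), with 5 of 7 old hearts above all younger ones.

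**Figure D2:**
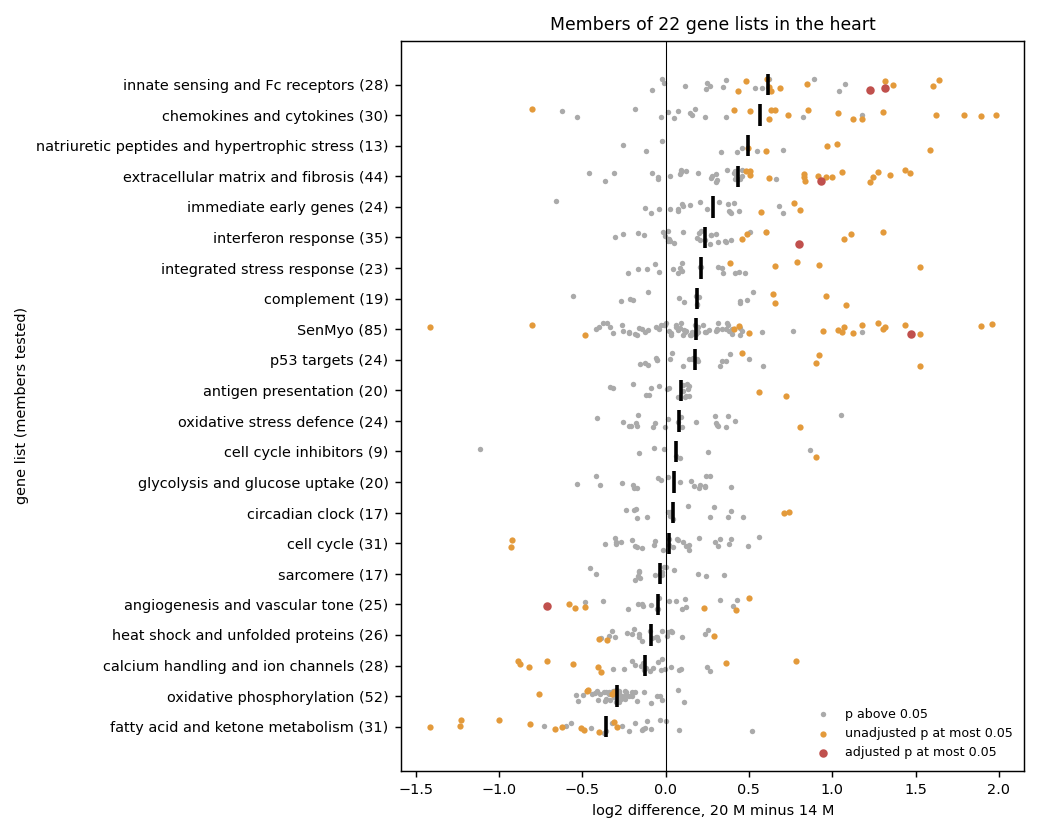
Log2 difference between 20 and 14 M (horizontal axis) of every tested member of 22 gene lists, ordered by the list's median (black bar), with grey, orange and red points for an unadjusted p above 0.05, an unadjusted p of at most 0.05 and an adjusted p of at most 0.05. The medians run from -0.36 for fatty acid and ketone metabolism to 0.61 for innate sensing and Fc receptors, and 50 of the 52 oxidative phosphorylation genes lie left of 0.

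The smallest adjusted p of all belonged to Frmpd3, a FERM and PDZ domain protein encoded on chromosome X (140342263 to 140435467, plus strand). Its count was 69.9, 90.2 and 113 (lowest, median, highest) at 14 M and 14.4, 30.8 and 63.4 at 20 M. All 7 old hearts lay below all 9 younger ones, and the log2 difference was -1.48 ± 0.20 (adjusted p = 6.21e-05), 2.79-fold lower at 20 M. Gal3st2c, a galactose sulfotransferase on chromosome 1 (93990509 to 94017147), spanned 154, 190 and 200 counts at 14 M and 40.8, 107 and 133 at 20 M. It did not overlap either, its log2 difference was -0.92 ± 0.15 (adjusted p = 0.000809), and it belongs to a cluster of similar genes that could share reads. Frmpd3, Gal3st2c and Gm26512 passed in each of the 16 fits that left out 1 mouse, and they were the 3 calls that stayed when both c1300 and c3580 were left out.

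Ech1, an auxiliary enzyme that isomerises dienoyl-CoA during the oxidation of unsaturated fatty acids, spanned 3177, 4082 and 4630 counts at 14 M and 1699, 2771 and 3572 at 20 M. In 6 of 7 old hearts it lay below all younger ones, and the log2 difference was -0.66 ± 0.13 (adjusted p = 0.0245). In the list of fatty acid and ketone metabolism, which does not hold Ech1, 0 of 31 tested members were called by limma, 12 were lower and 0 higher at an unadjusted p of at most 0.05, and the median was -0.36. The acyl-CoA thioesterase Acot1 stood at -1.24 ± 0.30 (adjusted p = 0.0895), and its near-identical paralogs could share its reads. Pdk4, the kinase that holds back glucose oxidation, had a median of 3415 counts at 14 M and 1806 at 20 M, at -1.0 ± 0.27 (adjusted p = 0.141). Cpt2, the inner membrane carnitine palmitoyltransferase, stood at -0.51 ± 0.14 (adjusted p = 0.155), and all 7 old hearts lay below the 14 M median for each of these 3 genes. The muscle carnitine palmitoyltransferase Cpt1b was listed at 0 in all 16 libraries.

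The oxidative phosphorylation list had a median of -0.29, with 50 of 52 tested members negative, against 49.8% of all tested genes positive, 0 called by limma and 5 lower at an unadjusted p of at most 0.05. The cytochrome c oxidase subunits Cox8b, Cox7a1 and Cox7b stood at -0.47 ± 0.20, -0.76 ± 0.33 and -0.31 ± 0.14 (adjusted p = 0.644, 0.682 and 0.724). Members of this list share their source and are correlated, so the count of negative members is a description. The list's median was -0.23 in set A alone and -0.25 in set B alone, with 3 and 14 members lower at an unadjusted p of at most 0.05. It was -0.595 with 7 lower in the libraries with suffix b, -0.187 with 0 lower in those without it, and -0.24 with 0 lower without c1300 and c3580. In glycolysis and glucose uptake 0 of 20 members passed even at an unadjusted p of 0.05, with Pfkfb1 at -0.42 ± 0.23, Eno3 at -0.53 ± 0.34 and Pgk1 at 0.24 ± 0.16, and the median was 0.05.

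Aqp1, the water channel of capillary endothelium and red cells, spanned 897, 1086 and 1239 counts at 14 M and 364, 678 and 903 at 20 M. In 6 of 7 old hearts it lay below all younger ones, with a log2 difference of -0.71 ± 0.15 (adjusted p = 0.030). Of 8 tested members of the erythroid list, all were negative, 7 at an unadjusted p of at most 0.05 and 0 with an adjusted p of at most 0.05 by limma, and the median log2 difference was -1.50. Their summed level was 6023 at the lowest, 10602 at the median and 35656 at the highest at 14 M, and 2008, 4171 and 7970 at 20 M. The heme synthesis gene Alas2 was listed at 0, and the alpha globin genes, like the beta globin genes, are near-identical copies. With the mean erythroid level as a covariate, a limma fit added after the data were seen, Aqp1 stood at -0.70 (adjusted p = 0.0515). In that fit 17 of the 19 genes stayed called. The erythroid level was itself mostly lower at 20 M, so this fit cannot tell age and blood apart. The part of blood in these values was not tested. The 11 endothelial markers had a median of -0.0046 and a summed level of 33750 to 42535 at 14 M and 31391 to 46620 at 20 M. Aqp1 was the 1 call of the 25 tested genes of angiogenesis and vascular tone, where 3 were higher and 4 lower at an unadjusted p of at most 0.05, among them the angiopoietin Angpt1 (-0.49 ± 0.15) and the lymphatic growth factor Vegfd (0.42 ± 0.16).

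Of the genes of cardiac load, Nppb and Rcan1 came closest to the threshold. Nppb, brain natriuretic peptide, spanned 702, 1051 and 1484 counts at 14 M and 1311, 1690 and 6849 at 20 M. In 6 of 7 old hearts it exceeded all younger ones, and the log2 difference was 1.03 ± 0.24 (adjusted p = 0.0562). Rcan1, the calcineurin regulator, stood at 0.97 ± 0.22 (adjusted p = 0.0570) and Myh7 at 0.49 ± 0.18 (adjusted p = 0.496). Nppa, atrial natriuretic peptide, ranged from 933 to 10210 counts at 14 M and from 1353 to 10614 at 20 M, and its difference of 0.46 ± 0.51 (adjusted p = 0.999) was smaller than its error. The atrial markers, of which Nppa is one, summed to 4561 to 23116 at 14 M and 5163 to 21341 at 20 M, and the part of atrial tissue in its values was not tested. Of the 13 tested genes of natriuretic peptides and hypertrophic stress, 0 were called (2 with quantile normalization and 2 with edgeR), 5 were higher and 0 lower at an unadjusted p of at most 0.05, and the median was 0.49. Without c1300 and c3580 the median was 0.259 with 2 members higher, and in the libraries with suffix b alone it was 0.169.

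The sarcomere list, which does not hold the myosin Myh7 given above, showed no call and no unadjusted pass by limma. Of its 17 genes tested 0 had an unadjusted p of at most 0.05, with Myl2 at -0.42 ± 0.25, Tnni3 at -0.45 ± 0.27 and Myom2 at 0.24 ± 0.15. Myh6 differed by -0.16 ± 0.32, with a 95% interval from -0.80 to 0.48, so a moderate change in either direction was not detectable with this spread. The list of calcium handling and ion channels had a median of -0.12, with 2 of 28 higher and 7 lower at an unadjusted p of at most 0.05 and 0 called. The transient outward potassium channel subunit Kcnd2 stood at -0.82 ± 0.25 (adjusted p = 0.252), the calcium buffer Casq1 at -0.72 ± 0.23 (adjusted p = 0.293) and the modifier subunit Kcnv2 at -0.88 ± 0.34 (adjusted p = 0.533).

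Cdkn1a, the p21 inhibitor of cyclin-dependent kinases, spanned 174, 214 and 354 counts at 14 M and 328, 402 and 835 at 20 M, at 0.91 ± 0.23 (adjusted p = 0.0908). All 7 old hearts exceeded the 14 M median, and 4 exceeded every 14 M value. Cdkn2a, which encodes p16, was near the limit of detection, at 0 to 10.8 counts at 14 M and 3.88 to 16.0 at 20 M, with 0.87 ± 0.51 (adjusted p = 0.998), and the imprinted inhibitor Cdkn1c stood at -1.11 ± 0.62. The stress cytokine Gdf15 spanned 1.15 to 7.74 counts at 14 M and 3.99 to 56.4 at 20 M (1.53 ± 0.47, adjusted p = 0.262), and the p53-induced receptor Eda2r stood at 0.36 ± 0.28 (adjusted p = 0.999). Of the p53 target list 0 of 24 were called and 4 were higher at an unadjusted p of at most 0.05 (median 0.18). Of 9 cell cycle inhibitors 0 were called and 1 (Cdkn1a) was higher at an unadjusted p of at most 0.05 (median 0.06). With edgeR on the recovered reads, 1 member of the p53 target list and 1 of the inhibitor list were called higher. In SenMyo, a published senescence set, 1 of 85 tested genes (Csf2rb) was called by limma and 4 by edgeR. By limma 17 were higher and 3 lower at an unadjusted p of at most 0.05, and the median was 0.18. Ereg, an epidermal growth factor ligand of that set, stood at 1.96 ± 0.55 (adjusted p = 0.173), with 180 counts in c3580 and 0.94 to 17.9 at 14 M.

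The remaining stress and regulatory lists held 0 calls each by limma. Over all tested genes 3.16% were higher and 2.6% lower at an unadjusted p of at most 0.05 by limma. Counts of 1 or 2 members below are therefore not read as a result about a list. In the integrated stress response 5 of 23 were higher at an unadjusted p of at most 0.05 (median 0.21), including the p53-linked Sesn2 (0.92 ± 0.35) and asparagine synthetase Asns (0.65 ± 0.26). Among heat shock and unfolded protein genes 1 of 26 was higher and 2 lower, with the mitochondrial chaperone Hspd1 at -0.40 ± 0.15, Hsph1 at -0.35 ± 0.14 and Dnajb4 at 0.29 ± 0.14. In oxidative stress defence 1 of 24 was higher, heme oxygenase Hmox1 at 0.81 ± 0.38, while the extracellular superoxide dismutase Sod3 and sulfiredoxin Srxn1 stood at 0.31 ± 0.17 and 0.36 ± 0.20. For the circadian clock 2 of 17 were higher, Bhlhe40 (0.71 ± 0.31) and Per1 (0.74 ± 0.34). Among immediate early genes 3 of 24 were higher, Ier3 (0.57 ± 0.21), Myc (0.81 ± 0.30) and Egr2 (0.77 ± 0.29). In the cell cycle list 2 of 31 were lower, Cenpf (-0.92 ± 0.42) and Ube2c (-0.93 ± 0.42), with Tyms at 0.32 ± 0.22.

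Markers of other cells overlapped between the ages. The summed cardiomyocyte markers were 400745 to 933684 at 14 M and 368140 to 887634 at 20 M, with the lowest value in c3580. Skeletal muscle fibre markers, which include Acta1, a gene also listed under hypertrophic stress, summed to 656 to 5296 at 14 M and 832 to 34849 at 20 M. The 4 set B mice of 20 M (c1312, c1315, c3055 and c3580) lay above all 14 M hearts on that sum, with the highest value in c3580. Most members did not share this rise. Of the 8 tested, 2 had a positive and 6 a negative log2 difference, and the median was -0.10. By limma 1 of them was higher and 0 lower at an unadjusted p of at most 0.05. The part of skeletal fibre in the results was not tested. Pericyte and smooth muscle markers summed to 12227 to 17162 and 6443 to 15167, mesothelial markers to 953.1 to 1896 and 789 to 1725, adipocyte markers to 307 to 2142 and 294 to 2155, and Schwann and nerve markers to 316 to 588 and 367 to 577. Neutrophil markers summed to 120 to 237 and 114 to 714, T and NK cell markers to 139 to 268 and 99.7 to 341, B and plasma cell markers to 193 to 2223 and 69.6 to 3209, mast cell markers to 145 to 244 and 142 to 299, platelet markers to 288 to 1211 and 193 to 527, and thymocyte markers to 52.5 to 103 and 45.7 to 107. Markers of lung epithelium, hepatocytes and kidney tubules summed to 198 to 2858, 81.0 to 500 and 98.2 to 2996 at 14 M and to 358 to 3090, 129 to 433 and 113 to 597 at 20 M. The testis germ cell markers summed to 5.39 to 978 and 9.14 to 944. No list in this paragraph held a called gene.

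Over the 6 ages, the 26 M mean lay between those of 14 and 20 M for 18 of the 19 genes, all but Lair1. All 19 were chosen for their difference between 14 and 20 M, and that choice alone can place the 26 M mean in between. The count of 18 is thus a description and is not read as a reversal at 26 M. The same share over all tested genes is not given here. Gm26512 averaged 42.0 ± 11.7 (SD) in 7 mice of 3 M, 33.6 ± 17.5 in 9 of 5 M, 45.7 ± 21.5 in 8 of 8 M and 42.6 ± 16.4 in the 9 of 14 M. It averaged 193 ± 150 in the 7 of 20 M and 78.9 ± 25.0 in 5 of 26 M. Dio2 averaged 70.3 ± 12.2 at 14 M, 216 ± 139 at 20 M and 112 ± 35.4 at 26 M. Lair1 averaged 79.7 ± 19.7 and 82.0 ± 15.3 at 20 and 26 M, and Ech1 2614 ± 620 and 2823 ± 342. Frmpd3 averaged 94.6 ± 14.6, 36.0 ± 16.2 and 60.7 ± 19.1 at 14, 20 and 26 M. The summed erythroid markers spread from 2794 to 72131 at 26 M. The SD was widest at 20 M for 13 of the 14 genes that rose, and that of Sfrp1 was 58.9, 323 and 43.8 at 14, 20 and 26 M. These genes were chosen for a higher level at 20 M, and an SD of counts can widen with the mean. The count of wide SDs is thus a description, and the spread relative to the mean was not tested. The differences between 26 M and the other ages were not tested.

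**Figure D3:**
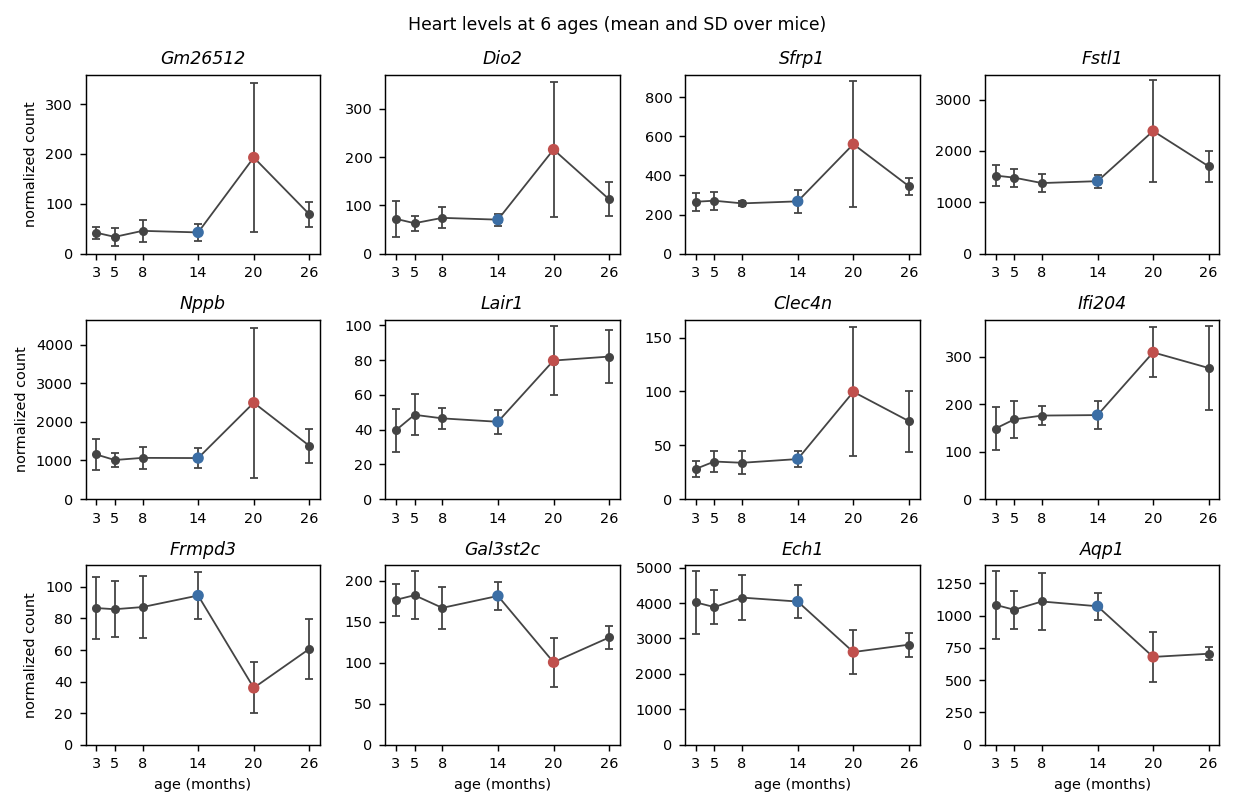
Mean normalized count (vertical axis) with SD as bars at each of 6 ages from 3 to 26 months (5 to 9 mice an age) for 12 heart genes, with 14 M in blue and 20 M in red. Nppb, which was not called, goes from 1063 at 14 M to 2497 at 20 M and 1380 at 26 M, with the widest bar at 20 M.

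The same mice gave kidney and skeletal muscle libraries, in which the contrast of 20 and 14 M was fitted in the same way. In kidney 3817 of 16839 genes passed (22.7%), and 11 of the 17 heart genes measured there passed in the direction seen in the heart and 0 in the other. In skeletal muscle 34 of 17430 genes passed (0.195%) and 0 of the 19 heart genes did by limma. Clec4n was at 26.3 to 52.5 counts at 14 M and 37.4 to 217 at 20 M in the heart, at 0 to 5.16 and 16.8 to 138 in kidney, and at 3.63 to 12.1 and 3.73 to 31.7 in skeletal muscle. Gm26512 stood at 2.82 ± 0.76 in kidney (adjusted p = 0.00482) and at -0.49 ± 0.43 in skeletal muscle (adjusted p = 0.988).

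The difference between organs was tested on the heart minus the other organ within each mouse. Against kidney 878 of 14726 genes passed (5.96%), 241 with a more positive and 637 with a more negative heart difference, and 8 of the 17 heart genes were among them. Sfrp1 and Aoah were more positive in the heart, by 1.10 ± 0.25 (adjusted p = 0.00391) and 1.28 ± 0.36 (adjusted p = 0.0232), and the kidney differences were -0.17 ± 0.18 and -0.26 ± 0.23. Msr1, Clec4n, Lair1, Fstl1 and Ifi204 were more positive in kidney, by -2.78, -2.64, -1.62, -1.17 and -0.95 as heart minus kidney. In kidney Col1a1 rose by 2.62 ± 0.24 and Col3a1 by 2.28 ± 0.23, and their heart minus kidney differences were -2.004 and -1.87 (adjusted p = 9.87e-05 and 0.000243). That of Ccn2 was -0.255 ± 0.38, with a 95% interval from -1.02 to 0.51 (adjusted p = 0.836). Against skeletal muscle 2 of 15270 genes passed (0.0131%), neither of them among the 19. Slf1, a genome maintenance factor, is named here after its values were seen. It had medians of 782 and 605 counts in the heart and 238 and 292 in skeletal muscle at 14 and 20 M, a heart minus muscle difference of -0.87 ± 0.16 (adjusted p = 0.0248).

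**Figure D4:**
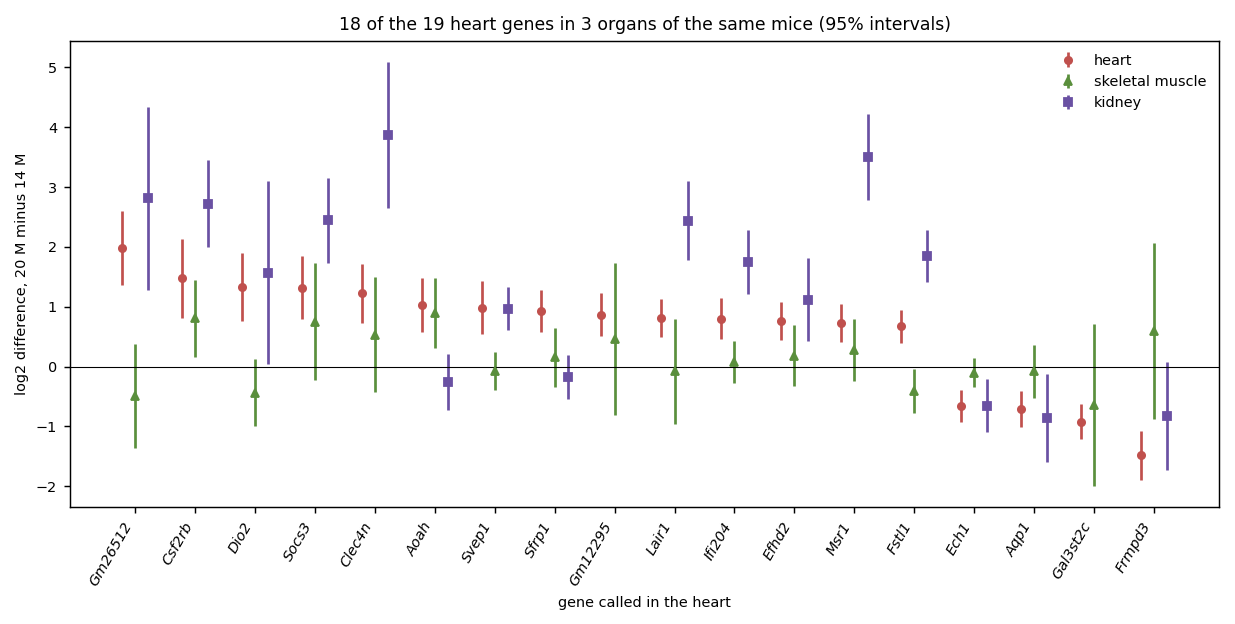
Log2 difference between 20 and 14 M (vertical axis, with 95% intervals) of 18 of the 19 called heart genes in heart (red circles), skeletal muscle (green triangles) and kidney (purple squares) of the same mice. Kidney lies above the heart for Msr1 (3.50 against 0.73) and Clec4n (3.87 against 1.23), and below it for Sfrp1 and Aoah.

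The calls leaned on some mice more than on others. Of the 14 genes that rose, c3580 had the highest 20 M value in 10, c3054 in 3 and c1312 in 1, and the lowest value was that of c1315 in 6. The mice c1300, c3054 and c3580 exceeded all 14 M hearts in each of the 14 genes, c2140 in 11, c3055 in 10, c1312 in 9 and c1315 in 7. All 19 genes kept their direction in set A alone, set B alone, the libraries with and without suffix b, and without c1300 and c3580, with a median size of 0.98, 0.84, 0.70, 1.06 and 0.66 on the log2 scale. In the same order, 15, 0, 0, 3 and 3 of the 19 stayed called. These fits reused mice of the contrast that chose the 19, so the kept direction is not independent support. The values of 7 of the 19 genes did not overlap between the ages, among 13 of all 15842 tested genes (0.0821%), but the same contrast chose the 19.

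**Figure D5:**
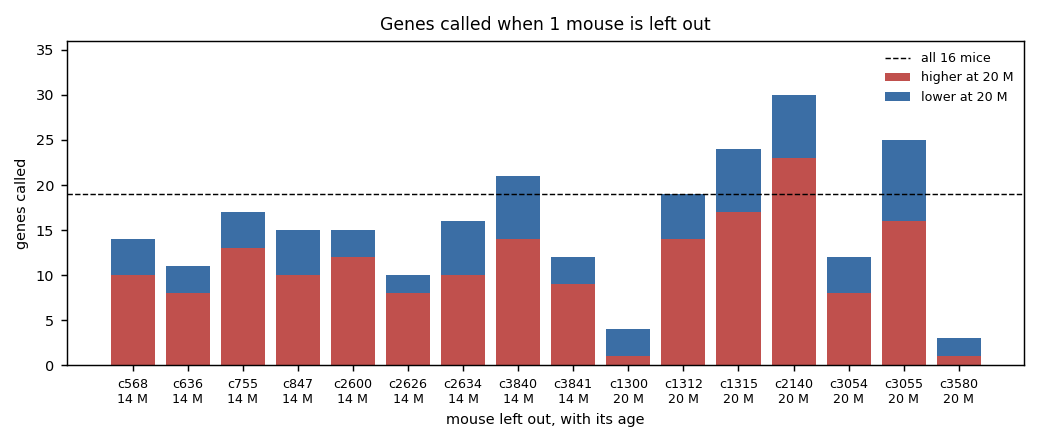
Number of genes called at an adjusted p of at most 0.05 (vertical axis) when the mouse named below each bar is left out, split into higher (red) and lower (blue) at 20 M, with the dashed line at the 19 calls of all 16 mice. The bars run from 3 without c3580 and 4 without c1300 to 30 without c2140.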

How the data were processed

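Polyadenylated RNA of pulverised organs was sequenced as single reads of a ligation-based library without molecular identifiers. Per the labels and methods, the authors converted reads with bcl2fastq 2.20, trimmed adapters (Trim Galore in the processing notes), aligned to GRCm38 with HISAT2 2.1.0, counted reads per gene against the Ensembl annotation of that build in R 3.5.1, and deposited a signal table per organ of counts divided by DESeq2 size factors. Each heart column was a whole multiple of 1 step (100% of values above 0 within 0.01 read), which gave the reads behind each value.

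Genes that reached 10 normalized counts in 5 or more heart columns were tested with limma 3.58.1 (R 4.3.3, trended prior) on log2(normalized count + 1) of 45 libraries in 6 age groups, contrast 20 minus 14 M, two-sided, Benjamini-Hochberg at 0.05. A difference on this scale understates the change of low genes. The heart minus organ fits used each mouse's own pair of libraries. Alternatives included edgeR 4.0.16 and DESeq2 1.42.0 on the recovered reads. The code was tested on simulated data. Gene positions came from GENCODE (GRCm38), promoters from RefSeq (13 of the 19 genes matched). Named were all called genes, the 3 members with the smallest p of each pathway list, the summed level of each cell type list, and 13 fixed genes, except that some genes are not reported here although they stay in every count. Of 849 list symbols 848 were in the table. The members and lists were chosen with earlier results of these data known. Several mice share a cage, which was not modelled.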

Additional observations from a re-analysis of the deposited data

Results flagged for a closer look

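Among the named genes, single mice stood far from the rest of their age group by Dixon's 95% value, which chance alone exceeds in about 1 in 20 groups. At 20 M the mouse c3580 was far above the other 6 for Gm26512 (516 normalized counts), Sfrp1 (1220), Lair1 (120), Fstl1 (4419), Efhd2 (839), Cdkn1a (835), Nppb (6849), Gdf15 (56.4), Lox (742), Pgk1 (6808), Col8a1 (2843), Ccn2 (7315), Ereg (180), Dnajb4 (4293), Myc (112) and Egr2 (82.9). The 20 M mouse c3054 was far above the others for Aoah (221), Cdkn2a (16.0), Ccl8 (207) and Sod3 (1193), c1312 for Oas1a (93.7), and c2140 for Cox7b (4433). At 14 M, c568 was far below the others for Fstl1 (1125) and far above them for Cdkn2a (10.8) and Dnajb4 (2397). The mice c636 for Nppa (10210), c3841 for Kcnd2 (1726) and c755 for C3ar1 (188) were far above the other 14 M mice, and c3840 was far below them for Ccl24 (22.6).

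The difference between 20 and 14 M itself differed between the heart and the kidney of the same mice for 24 named genes by limma on the paired values. Over all genes tested in both organs, 878 of 14726 (5.96%) did so. Called and list genes were named for their small p in the heart contrast, so the count of 24 is a description. As heart minus kidney on the log2 scale, the difference between organs was positive for Sfrp1 (1.10), Aoah (1.28), Rcan1 (1.14), Sod3 (1.23) and Hsph1 (0.52). It was negative for the myeloid and immune genes Lair1 (-1.62), Clec4n (-2.64), Msr1 (-2.78), Ifi204 (-0.95), Ccl9 (-2.58), C1qc (-1.74), C3ar1 (-1.92), Ctss (-2.13), Nlrc5 (-1.59), Tap2 (-1.12) and Casp4 (-1.69). It was also negative for Fstl1 (-1.17), Col1a1 (-2.004), Col3a1 (-1.87), Col8a1 (-1.33), Eda2r (-1.54), Pfkfb1 (-1.38), Cenpf (-2.60) and Ube2c (-2.39).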

How the results depend on the processing

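Against 19 heart genes called, limma called 10 with no filter, 61 came from edgeR, 92 from DESeq2 (1 gene without an adjusted p), 190 with the 2 sets as a block and 0 with the 14 and 20 M libraries alone (1000 at an unadjusted p of at most 0.05). Among fits chosen after seeing the data, the erythroid covariate gave 34 calls, set A alone 70, set B alone 0 (844 unadjusted), libraries without suffix b 6, those with it 0 (329 unadjusted), and both c1300 and c3580 left out 3. The 2 sets were drawn from the heart values themselves, so the fits by set are not independent checks. Leaving out 1 mouse gave 3 to 30 calls, with 3 without c3580, 4 without c1300, 10 without c2626, 11 without c636, 12 without c3841 or c3054 and 30 without c2140. For heart minus skeletal muscle the 2 calls became 0 with no filter (1134 unadjusted) and 0 with both ages alone (820 unadjusted), and 0 to 32 with 1 mouse left out, 15, 24 and 32 of them without c1312, c1315 and c3055. For heart minus kidney the share of tested genes called, 5.96%, was 2.95% with no filter (839 of 28483 genes) and 3.50% (without c3580) to 7.56% (without c3055) with 1 mouse left out. The pairing of these 2 comparisons comes from organs of the same mouse, and with no replicate block they gave 12 calls for skeletal muscle and 8.01% (1179 genes) for kidney. The 14 and 20 M groups share no mouse, so no paired analysis of the heart contrast itself was possible.

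None of the 19 genes changed direction under any alternative run, 203 of their 589 alternative values lost the call, and the cause was not tested. Every such run reused libraries of the contrast that chose the 19. Uncalled genes changed sign as follows: in libraries with suffix b Nppa (-0.64), Postn (-0.026), Col3a1 (-0.075), Pfkfb1 (0.30) and Sod3 (-0.12), in set B Myh6 (0.034), and in set A Pgk1 (-0.0052). List medians changed sign too, among them sarcomere genes with quantile normalization (0.0045) and angiogenesis with edgeR (0.05). The edgeR fit changes both the model and the scaling. In libraries with suffix b the sign changed for matrix (-0.026), complement (-0.133), oxidative stress defence (-0.145), glycolysis (-0.207) and calcium handling (0.012). The median was -0.276 for the cell cycle in set A and 0.063 for sarcomere genes in set B. That of antigen presentation was -0.011 in libraries without suffix b. A spread as wide as that of the 20 M hearts limits what 7 mice can show.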
